A study of Mus musculus with 12 samples.

Results

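The dermal adipocyte genes followed here are a list of 10 genes that white fat cells express strongly: the hormone genes Adipoq, Lep, Retn and Cfd, the fatty acid carrier gene Fabp4, the lipid droplet genes Plin1, Plin4 and Cidec, and the lipase genes Lipe and Pnpla2. They were taken by name, with earlier results of these data known. Measured values chose only the main probe set of each gene, the brightest on average. The array annotation gave 8 of the 10 at least 1 probe set of their own, 13 probe sets in all, out of 18193 genes measured. Cfd and Plin1 had none and were not analysed here.

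Total RNA of whole dorsal skin from the study of the aryl hydrocarbon receptor (AhR) was hybridised to 12 Affymetrix whole-genome mouse arrays, 3 in each of 4 groups. The groups were AhR KO mice on day 2 of Imiquimod, AhR HET mice on day 2 of Imiquimod, untreated AhR KO mice and untreated AhR HET mice. AhR KO mice (Ahr-/-) lack the receptor in the whole body and AhR HET mice (Ahr+/-), their littermates, keep 1 copy of the gene, so no group was wild type. Imiquimod (IMQ), an agonist of Toll-like receptor 7, was applied as Aldara cream to shaved skin, which starts a psoriasis-like inflammation, and untreated mice received no cream. Effects of imiquimod, of the cream base and of its daily application therefore cannot be told apart.

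Beneath the dermis of mouse skin lies a layer of white adipocytes. These cells store triglyceride in 1 large droplet coated by perilipins and CIDE proteins, release it through a chain of lipases, and secrete adipokines that report on energy stores. The layer thickens and thins with the hair cycle and responds to wounding and infection. Whole skin also holds keratinocytes, fibroblasts, sebaceous glands, vessels and the thin muscle below the fat. In such bulk samples, fewer adipocytes and less of a transcript per adipocyte cannot be told apart.

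Values are log2 signals, so a difference of 1 is a 2-fold change. A gene was called where limma's adjusted p lay under 0.05 and the change was 1.5-fold or more. The labels name the 3 arrays of a group biological replicates but do not say which animals they came from, and p-values measure the spread between these arrays. The comparisons share arrays: both genotype comparisons and both treatment comparisons draw on the same 12.

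Of the 8 genes measured, limma called 3 adipokine genes lower with IMQ, in 1 genotype each. They were Adipoq and Retn in AhR KO skin, where 12.1% of all genes were called lower, and Lep in AhR HET skin, where 3.83% were. A second test, the rank product, run at a stricter threshold, called no member. The calls of Retn and Lep were also lost when some single arrays were left out. The genes for lipid storage and lipolysis were called in neither genotype. No member was called between AhR KO and AhR HET skin on day 2, beside 2.12% of all genes higher and 1.86% lower. None was called in untreated skin (0.0055% of all genes) or for a difference between the genotypes' responses (1.32%). Beside these shares, 0 of 8 is not a result about the list. The plot of all 8 genes by array shows the 4 groups side by side.

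**Figure D1:**
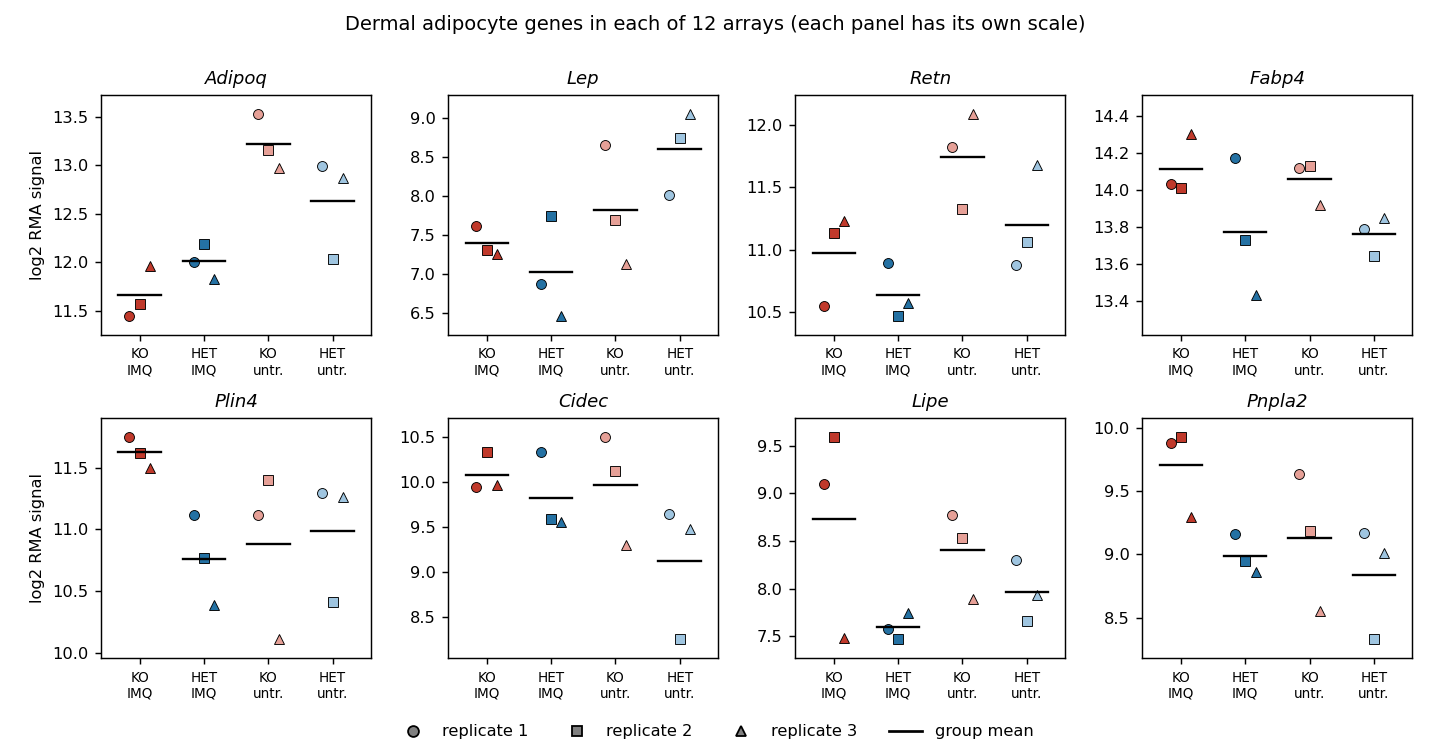
Log2 signal of each measured adipocyte gene (vertical axis, its own scale in each panel) in the 12 arrays, by group along the horizontal axis. Points are single arrays, their shape gives the replicate number, and lines are means of 3 arrays. Adipoq lies between 11.45 and 11.96 in IMQ-treated AhR KO skin and between 12.97 and 13.53 in untreated AhR KO skin.

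The start regions of 3 adipokine genes are shown because limma called these members lower with IMQ. Each is the last 120 bases before the transcription start, written 5′ to 3′ on the gene's strand, from RefSeq on GRCm38.p6. Capitals mark matches to the motifs searched in the 250 bases before each start.
Adipoq, chr16:23146416-23146535, + strand: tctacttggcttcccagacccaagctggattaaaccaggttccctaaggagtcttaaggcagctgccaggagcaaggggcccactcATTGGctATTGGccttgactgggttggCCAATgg
Lep, chr6:29060101-29060220, + strand: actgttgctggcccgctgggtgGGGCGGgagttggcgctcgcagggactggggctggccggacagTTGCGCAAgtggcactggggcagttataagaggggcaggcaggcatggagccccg
Retn, chr8:3655650-3655769, + strand: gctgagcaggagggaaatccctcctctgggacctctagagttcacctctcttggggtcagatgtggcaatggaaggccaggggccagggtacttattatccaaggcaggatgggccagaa

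The motifs were searched on both strands. Adipoq held CCAAT 3 times, at positions -34, -27 and -7 from the start, and 33.8% of 32851 promoter windows held it at least once. Lep held GGGCGG at -98, found in 32.7% of windows. Lep also held TTGCNNAA at -55, a pattern searched for C/EBP factors and found in 9.56%. The letters there were TTGCGCAA, a palindrome whose own share was not counted. Retn matched none of the motifs. TATAAA (12.4% of windows), AGGTCA (14.0%) and the DR1 element bound by PPARG with RXR, which repeats AGGTCA after 1 base (0.0335%), had no match in any of the 11 windows of the 9 members that the RefSeq table held. The 9 left out Fabp4. These matches describe letters and not sites in use, and these arrays measured no binding.

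Adipoq encodes adiponectin, an adipocyte hormone that raises insulin sensitivity. Its signal was 11.45, 11.57 and 11.96 in IMQ-treated AhR KO skin, against 13.53, 13.16 and 12.97 in untreated AhR KO skin. The groups did not overlap, and each treated array lay more than 1 log2 unit below each untreated one. The fall was -1.56 on the log2 scale (SE 0.25, adjusted p = 0.000684), or 0.339-fold with a 95% interval of 0.234 to 0.491. It was called whichever array was left out.

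The Adipoq signal in AhR HET skin was 12, 12.19 and 11.83 after IMQ, against 12.99, 12.03 and 12.87 without treatment. Untreated replicate 2 lay within the range of the treated arrays. The difference was -0.63 (SE 0.25, adjusted p = 0.133) and was not called. Without AhR HET untreated replicate 2 it was -0.92 (adjusted p = 0.00933) and was called. The difference between the genotypes' responses was -0.94 (95% interval -1.69 to -0.18, adjusted p = 0.191), so a larger fall in AhR KO skin was not shown. On day 2 Adipoq averaged 11.66 ± 0.270 in AhR KO skin and 12.01 ± 0.181 in AhR HET skin (SD, n = 3 each).

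Lep encodes leptin, which signals the size of fat stores to the brain. Its signal in AhR HET skin was 6.88, 7.74 and 6.47 after IMQ, against 8.01, 8.74 and 9.05 without treatment. The groups did not overlap. The fall was -1.57 (SE 0.39, adjusted p = 0.025), or 0.337-fold with a 95% interval of 0.186 to 0.609. The call was lost without AhR HET untreated replicate 3 (-1.34, adjusted p = 0.0984), without AhR HET IMQ replicate 1 (-1.50, adjusted p = 0.0888) and without AhR HET IMQ replicate 3 (-1.29, adjusted p = 0.098).

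Lep in AhR KO skin gave 7.62, 7.31 and 7.26 after IMQ, against 8.65, 7.69 and 7.13 without treatment. The untreated arrays spanned 1.52 log2 units and took in all the treated ones. The difference was -0.43 (SE 0.39, adjusted p = 0.458). The genotypes' responses differed by 1.14, AhR KO minus AhR HET, with a 95% interval of -0.07 to 2.35 (adjusted p = 0.315), so a fall particular to AhR HET skin was not shown.

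Retn encodes resistin, which mouse adipocytes secrete and which opposes insulin action in mice. Its signal in AhR KO skin was 10.55, 11.13 and 11.23 after IMQ, against 11.82, 11.33 and 12.09 without treatment. The groups were separate, by 0.10 log2 units at their nearest. The fall was -0.78 (SE 0.26, adjusted p = 0.0397), or 0.583-fold with a 95% interval of 0.396 to 0.859. The call did not hold when AhR KO untreated replicate 1 (-0.74, adjusted p = 0.111) or 3 (-0.61, adjusted p = 0.126) was left out. Nor did it hold when AhR KO IMQ replicate 1 (-0.57, adjusted p = 0.159) or 2 (-0.86, adjusted p = 0.0643) was left out, or AhR HET IMQ replicate 2 or 3, where the difference stayed at -0.78 with adjusted p = 0.0515 and 0.054.

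Retn in AhR HET skin gave 10.89, 10.47 and 10.57 after IMQ, against 10.88, 11.06 and 11.68 without treatment. Those groups overlapped at 1 array each. The difference was -0.56 (SE 0.26, adjusted p = 0.199), and the responses of the genotypes differed by -0.22 (95% interval -1.01 to 0.57, adjusted p = 0.798).

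Fabp4 encodes the fatty acid binding protein of adipocytes, which carries fatty acids through the cytosol and is also made by some macrophages and endothelial cells. Its brightest probe set gave 14.03, 14.01 and 14.30 in AhR KO and 14.17, 13.73 and 13.43 in AhR HET skin after IMQ, against 14.12, 14.13 and 13.92 in untreated AhR KO and 13.79, 13.64 and 13.85 in untreated AhR HET skin. These signals lie close to the highest of any probe set, so a change may be compressed. The IMQ differences were 0.05 in AhR KO skin (95% interval -0.33 to 0.44) and 0.01 in AhR HET skin (-0.38 to 0.40).

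Fabp4 had 3 dimmer probe sets, which let the same question be asked further from the ceiling. Their IMQ differences ran between -1.04 and 0.41 over both genotypes, and none was called. The dimmest of the 4 gave 7.68, 7.08 and 7.74 in AhR KO skin after IMQ, against 9.30, 9.33 and 6.97 in untreated AhR KO skin. Untreated replicate 3 lay below every treated array there, more than 2 log2 units from the other 2 untreated arrays.

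Plin4 encodes perilipin 4, which coats forming droplets in adipocytes and is also present in skeletal muscle. Its signal was 11.75, 11.62 and 11.50 in AhR KO skin after IMQ, against 11.12, 11.40 and 10.11 in untreated AhR KO skin. The groups did not overlap, with the treated arrays higher, but the difference of 0.75 (SE 0.32, adjusted p = 0.106) was not called, and without AhR KO untreated replicate 3 it was 0.37 (adjusted p = 0.339). The AhR HET arrays gave 11.12, 10.77 and 10.39 after IMQ, against 11.30, 10.41 and 11.26 without treatment, a difference of -0.23 (SE 0.32, adjusted p = 0.728). The responses differed by 0.98 (95% interval -0.01 to 1.97, adjusted p = 0.291).

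Cidec encodes the protein FSP27, which promotes the fusion of droplets into 1 large one. The AhR KO arrays gave 9.95, 10.33 and 9.97 after IMQ, against 10.50, 10.12 and 9.30 without treatment (difference 0.11, SE 0.37, adjusted p = 0.859). The AhR HET arrays gave 10.34, 9.59 and 9.56 after IMQ, against 9.65, 8.26 and 9.48 without treatment (difference 0.70, SE 0.37, adjusted p = 0.273). Both pairs of groups overlapped. AhR HET untreated replicate 2 had the lowest Cidec signal of the 12 arrays.

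Lipe encodes hormone-sensitive lipase, which cleaves diglyceride. In AhR KO skin its signal was 9.10, 9.59 and 7.48 after IMQ, against 8.77, 8.53 and 7.89 without treatment. The treated arrays spanned 2.11 log2 units, with replicate 3 far below the other 2, and the difference was 0.33 (SE 0.42, adjusted p = 0.605). Without AhR KO IMQ replicate 3 it was 0.95 and was called. Lipe in AhR HET skin gave 7.58, 7.47 and 7.74 after IMQ, against 8.30, 7.66 and 7.93 without treatment (difference -0.36, SE 0.42, adjusted p = 0.663).

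Pnpla2 encodes ATGL, the lipase that removes the first fatty acid from triglyceride. The AhR KO arrays gave 9.88, 9.93 and 9.30 after IMQ, against 9.64, 9.19 and 8.55 without treatment (difference 0.58, SE 0.28, adjusted p = 0.151). The AhR HET arrays gave 9.16, 8.95 and 8.86 after IMQ, against 9.17, 8.33 and 9.01 without treatment (difference 0.15, SE 0.28, adjusted p = 0.805). Neither was called. The second probe sets of Lipe and Pnpla2 were dim, at 3.83 to 4.63 and 4.33 to 4.97, and were not called in any comparison.

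Over the 8 genes, IMQ gave 0 called higher and 2 called lower in AhR KO skin, where 10.6% and 12.1% of all genes were called. In AhR HET skin the counts were 0 higher and 1 lower, where 5.22% and 3.83% of all genes were called. At an unadjusted p under 0.05, 1 member was higher and 2 were lower in AhR KO skin, where 38.7% of all genes passed that mark. In AhR HET skin 0 were higher and 3 lower, the adipokine genes Adipoq, Lep and Retn, where 24.9% of all genes passed. The rank product test, which the study's methods name, called no member in either genotype. At its stricter threshold (0.01) it called 380 of all genes in AhR KO skin and 223 in AhR HET skin. The members' median difference was 0.08 in AhR KO skin (0.07 over all genes) and -0.30 in AhR HET skin (-0.01 over all genes). The groups did not overlap for 1 member higher and 2 lower in AhR KO skin, beside 21.7% and 21.1% of all genes. In AhR HET skin they did not overlap for 0 higher and 1 lower, beside 15.4% and 14.4%. Beside these shares, and with 8 genes, the counts are not a result about the list as a whole.

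**Figure D2:**
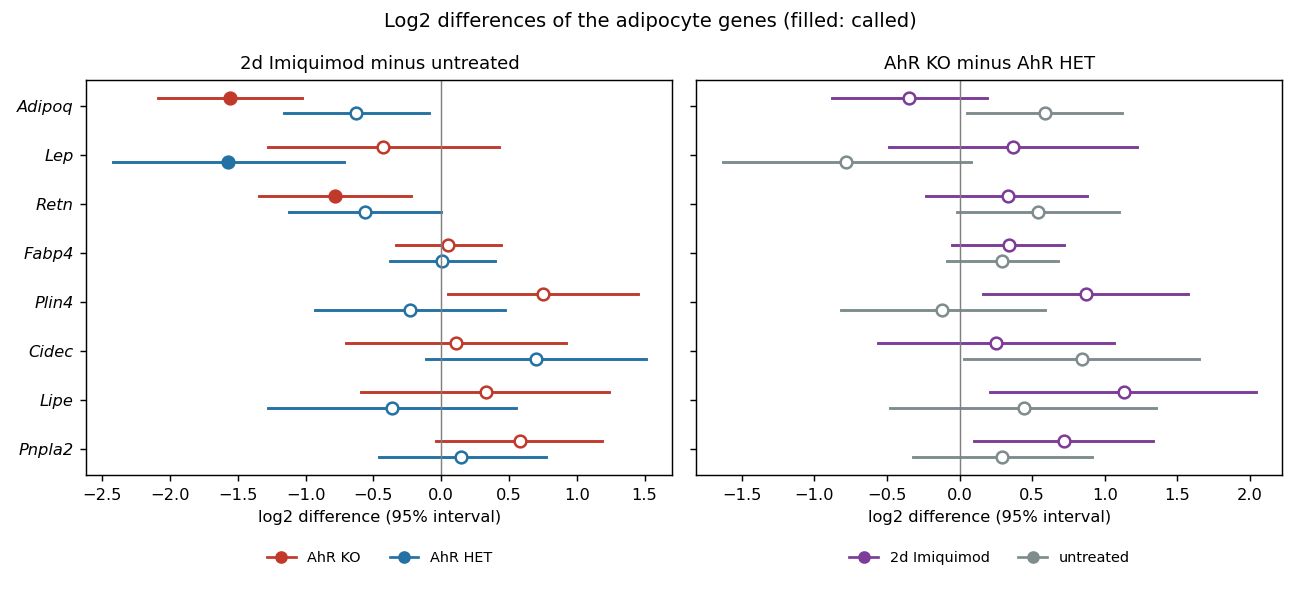
Log2 differences of the 8 adipocyte genes with 95% intervals (horizontal axis), left for IMQ minus untreated skin in AhR KO (red) and AhR HET (blue) mice, right for AhR KO minus AhR HET skin on day 2 (purple) and untreated (grey). Filled points were called: Adipoq (-1.56) and Retn (-0.78) in AhR KO skin and Lep (-1.57) in AhR HET skin.

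Between the genotypes on day 2 of IMQ, 7 of the 8 members had a higher mean in AhR KO than in AhR HET skin, but limma called none (0 higher and 0 lower, beside 2.12% and 1.86% of all genes). The rank product called none either, beside 212 of all genes. At an unadjusted p under 0.05, 3 members were higher, the lipid genes Lipe, Plin4 and Pnpla2, and 21.0% of all genes passed that mark. Plin4 gave 11.75, 11.62 and 11.50 in AhR KO skin, against 11.12, 10.77 and 10.39 in AhR HET skin, 0.87 higher (95% interval 0.16 to 1.57, adjusted p = 0.152). Pnpla2 gave 9.88, 9.93 and 9.30 in AhR KO skin, against 9.16, 8.95 and 8.86 in AhR HET skin, 0.72 higher (0.10 to 1.33, adjusted p = 0.174). These 2 members did not overlap between the genotypes and were higher in AhR KO skin, beside 18.0% of all genes, while 0 members were separate and lower, beside 15%.

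Lipe was 1.13 higher in AhR KO than in AhR HET skin on day 2 (95% interval 0.21 to 2.04, adjusted p = 0.152). That difference rested on AhR KO IMQ replicates 1 and 2, at 9.10 and 9.59, while AhR KO IMQ replicate 3, at 7.48, lay with the AhR HET arrays at 7.47 to 7.74. Without AhR KO IMQ replicate 3 it was 1.75 and was called (adjusted p = 0.00549), without AhR KO IMQ replicate 2 it was 0.70 (adjusted p = 0.539), and with AhR KO IMQ replicate 3 alone it was -0.11. The other members differed by -0.35 (Adipoq) to 0.37 (Lep).

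AhR KO IMQ replicates 1 and 2 also stood apart in an RNA quality control. The Gapdh control probe sets near the 3′ end exceeded those near the 5′ end by 1.17, 1.52 and 0.28 log2 units in AhR KO IMQ replicates 1, 2 and 3, and by 0.14 to 0.53 on the other 9 arrays. Lipe, Pnpla2 and Plin4 were highest on these 2 arrays and Adipoq lowest. Plin4 was at 11.75 and 11.62 there and at 11.50 on AhR KO IMQ replicate 3. With this Gapdh difference as a covariate, the day 2 differences between AhR KO and AhR HET skin became -0.17 for Lipe, 0.32 for Pnpla2 and 0.77 for Plin4. The fall of Adipoq in AhR KO skin became -1.34 (adjusted p = 0.0209) and that of Retn -0.70 (adjusted p = 0.231). With AhR KO IMQ replicate 3 alone in its group, Adipoq fell by 1.26 (adjusted p = 0.0632) and Retn differed by -0.52 (adjusted p = 0.423), neither called. Both settings left fewer calls over all genes too. The first uses a covariate that is high only on 2 of the 3 AhR KO IMQ arrays, and the second leaves 1 array in that group. A call lost under either setting therefore does not show that the difference was absent. With the Gapdh covariate limma called 2225 genes in AhR KO skin (4130 without it) and 27 on day 2 (724 without it). For the difference of the responses it called 12 genes (241 without the covariate). The part that RNA quality had in these signals was not tested.

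**Figure D3:**
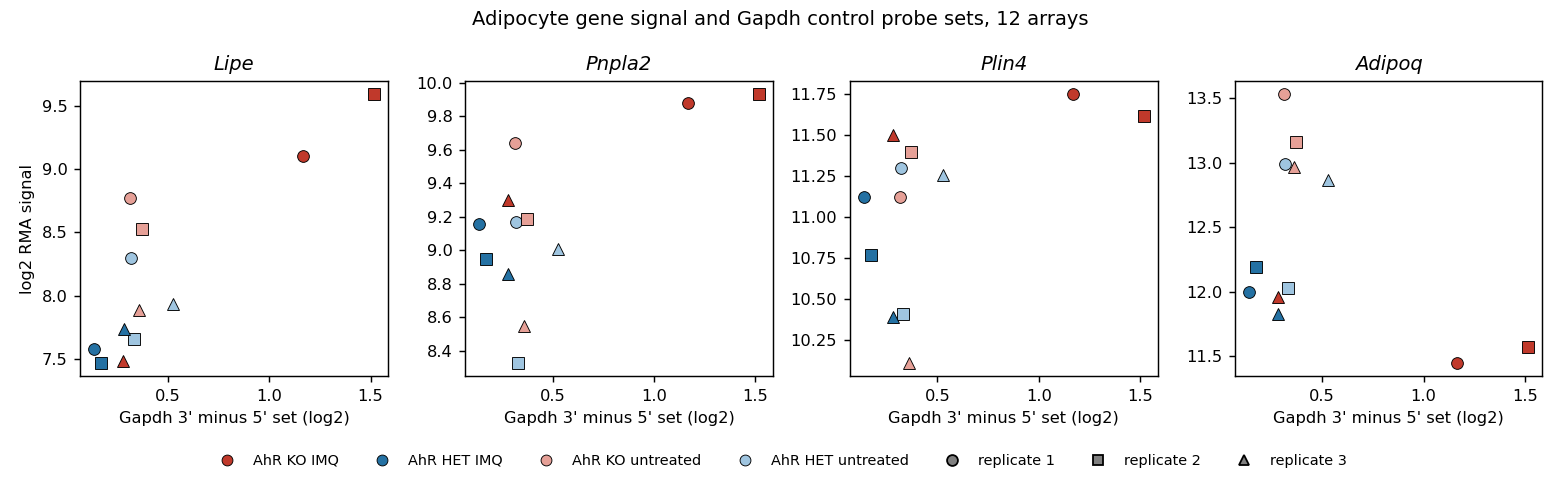
Log2 signal of Lipe, Pnpla2, Plin4 and Adipoq (vertical axes, own scales) against how far the 3′ Gapdh controls exceeded the 5′ ones in log2 units (horizontal axis), 1 point an array. AhR KO IMQ replicates 1 and 2, at 1.17 and 1.52, have the highest Lipe, Pnpla2 and Plin4 signals and the lowest Adipoq signals. The other 10 arrays lie between 0.14 and 0.53.

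In untreated skin no member was called between the genotypes by limma or the rank product. Of all genes, limma called 0.0055% in either direction there, and the rank product called 62 genes. At an unadjusted p under 0.05, Adipoq (0.59 higher in AhR KO skin, 95% interval 0.05 to 1.12, adjusted p = 0.747) and Cidec (0.84 higher, 0.03 to 1.65, adjusted p = 0.756) passed, against 6.49% of all genes. Fabp4 was the member whose groups did not overlap, at 14.12, 14.13 and 13.92 in AhR KO and 13.79, 13.64 and 13.85 in AhR HET skin (0.29 higher, adjusted p = 0.798), so 1 member was separate and higher, beside 5.03% of all genes, and 0 were separate and lower, beside 3.78%. Lep had the lower mean in AhR KO skin, by -0.78 (95% interval -1.63 to 0.08, adjusted p = 0.761). For the difference between the IMQ responses limma called 0 of the 8 members, beside 1.32% of all genes, and 1 member, Adipoq, had an unadjusted p under 0.05, as did 17.5% of all genes.

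Except in AhR KO skin after IMQ, members tended to be low on the same arrays within a group. In AhR KO skin after IMQ, replicates 1, 2 and 3 were lowest for 3, 1 and 4 of the 8 members. The shares of all genes there were 30.0%, 30.4% and 39.6%. AhR KO untreated replicate 3 had the lowest signal of its group for 7 of the 8 members, all but Retn, where 27.6% of all genes were lowest on that array. AhR HET untreated replicate 2 was lowest for 6 of 8 (34.3% of all genes), and AhR HET IMQ replicate 3 for 6 of 8 (30.9%). The mean signal over the 8 members was 10.24 on AhR KO untreated replicate 3, against 11.02 and 10.69 on the other arrays of that group, and 10.02 on AhR HET untreated replicate 2, against 10.51 and 10.64. Adipocyte signals thus differed between arrays of 1 untreated group by up to 0.77 log2 units on average over the 8 genes.

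The signals of other tissues in the samples moved too. The counts of called marker genes, here and below, stand beside 10.6% of all genes higher and 12.1% lower in AhR KO skin. In AhR HET skin these shares were 5.22% and 3.83%. The mean of 12 skeletal muscle genes was 12.72 to 13.13 in AhR KO and 12.64 to 12.95 in AhR HET skin after IMQ, against 13.57 to 13.64 in untreated AhR KO and 12.72 to 13.86 in untreated AhR HET skin. Of these 12 genes, 4 fell in AhR KO skin (among them Pvalb by 1.90 and Myh4 by 1.51) and 1, Pvalb, fell in AhR HET skin, by 1.29. Muscle signals were thus below the untreated ones in AhR KO skin beside Adipoq and Retn, while in AhR HET skin untreated replicate 2 lay among the treated arrays. Every muscle gene was at 10.51 or above on all 12 arrays. Whether a different share of deep tissue in the biopsies had a part in the adipokine differences was not tested.

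AhR HET untreated replicate 2 had a mean of 12.54 for 12 genes of hair follicles in their growth phase, against 8.43 and 8.59 on the other untreated AhR HET arrays, 5.76 to 7.58 in untreated AhR KO skin, and 5.45 to 8.00 over the 6 IMQ arrays. Of these hair genes limma called 6 lower with IMQ in AhR HET skin, where 12 were lower at an unadjusted p under 0.05 and the rank product called 9. In AhR KO skin it called 0, none had an unadjusted p under 0.05 and the rank product called none. Untreated, 11 were lower in AhR KO than in AhR HET skin at an unadjusted p under 0.05, where limma called 0 and the rank product 10. On AhR HET untreated replicate 2, muscle (12.72) and adipocyte means were the lowest of the untreated arrays. Sebaceous gland genes, 6 in number, averaged 8.83 to 9.09 in AhR KO and 9.59 to 9.88 in AhR HET skin after IMQ, against 8.81 to 9.40 in untreated AhR KO and 8.70 to 9.36 in untreated AhR HET skin. Of these, 1 was called higher and 2 lower in AhR KO skin, and 1 higher in AhR HET skin. In AhR KO skin Elovl3 differed by 2.81 and Scd3 by -2.67, both called. The part of sebaceous glands in signals of lipid genes was not tested.

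Inflammation was present in both genotypes. The 6 neutrophil genes averaged 11.56 to 11.67 in AhR KO and 8.97 to 10.31 in AhR HET skin after IMQ, against 6.33 to 6.68 in untreated AhR KO and 6.16 to 6.33 in untreated AhR HET skin, and limma called 6 of 6 higher in AhR KO and 4 of 6 in AhR HET skin. Macrophage genes, which matter for Fabp4, averaged 10.87 to 11.58 and 11.15 to 11.63 in AhR KO and AhR HET skin after IMQ, against 10.95 to 11.55 and 10.10 to 11.66 in untreated AhR KO and AhR HET skin. These averages held opposite changes. Of the 7 genes, 1, Csf1r, was called lower in AhR KO skin (-0.87), and 1, Adgre1, was called higher in AhR HET skin (2.24). On day 2 Adgre1 was called lower in AhR KO than in AhR HET skin (-1.6, adjusted p = 0.0119). Endothelial genes averaged 7.86 to 7.95 in AhR KO and 7.32 to 7.47 in AhR HET skin after IMQ, against 7.25 to 7.52 and 6.37 to 7.62 untreated in AhR KO and AhR HET skin. Of these 6 genes, 3 were called higher in AhR KO skin and 1 in AhR HET skin. Of the 5 keratinocyte keratin genes, 1 was called higher and 3 lower in AhR KO skin, and 2 higher and 1 lower in AhR HET skin. Of 6 fibroblast genes, 1 was called higher and 3 lower in AhR KO skin, and 2 lower in AhR HET skin. The part of these cells in the adipocyte signals was not tested.

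**Figure D4:**
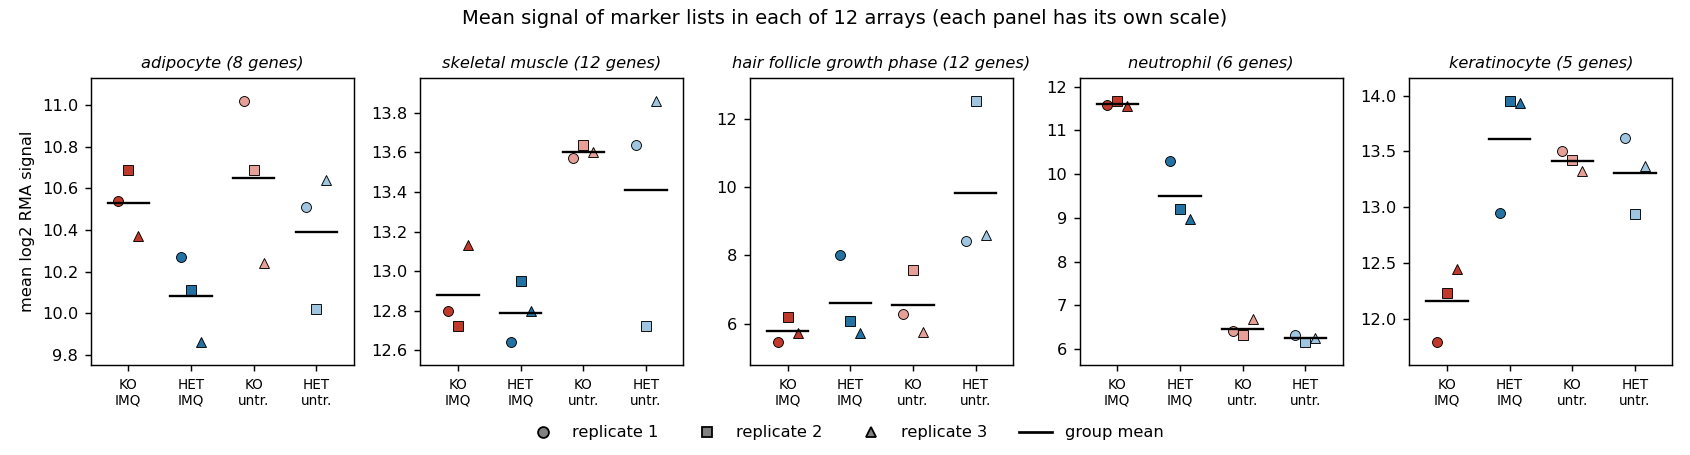
Mean log2 signal of marker gene lists (vertical axes, own scales) in the 12 arrays by group, with group means as lines. The adipocyte list spans 9.86 to 11.02, muscle is at 13.57 to 13.64 in untreated AhR KO skin, and AhR HET untreated replicate 2 stands out at 12.54 for hair follicle growth.

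Other genes of adipocyte biology were read from 8 lists by role, since the members cover only part of the pathway. With IMQ, limma called 10.6% of all genes higher and 12.1% lower in AhR KO skin, and 5.22% and 3.83% in AhR HET skin. On day 2 the shares between the genotypes were 2.12% and 1.86%. At an unadjusted p under 0.05, 38.7% (AhR KO), 24.9% (AhR HET) and 21.0% (day 2) of all genes passed in either direction. A count near its share is not a result about its list. Of the 8 lists, fatty acid and triglyceride synthesis had the most calls, in AhR KO skin. There IMQ lowered 11 of 17 measured genes and raised 1, with a median of -0.84 (0.07 over all genes), while in AhR HET skin 1 rose and 0 fell, with a median of -0.05. At an unadjusted p under 0.05, 3 were higher and 3 lower in AhR HET skin, and the rank product called 1 gene in AhR KO and 0 in AhR HET skin. For the difference between the responses, AhR KO minus AhR HET, 1 of these 17 genes, Me1, was called (-1.72, adjusted p = 0.033). At an unadjusted p under 0.05, 0 were higher and 10 lower, where 17.5% of all genes passed in either direction, and the median of the 17 was -0.77 (0.05 over all genes).

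Thrsp, which encodes Spot 14, a nuclear regulator of lipogenesis, gave 6.10, 7.13 and 7.55 in AhR KO skin after IMQ, against 11.61, 10.19 and 11.59 in untreated AhR KO skin. It fell by 4.20 on the log2 scale (adjusted p = 0.000133), and the groups lay more than 2 log2 units apart. With the probe sets of Thrsp averaged, the fall was 2.37 (adjusted p = 0.0004), still called. Elovl5, an elongase of polyunsaturated fatty acids, fell by 2.03 (adjusted p = 0.00025). Dgat1, which makes triglyceride from diglyceride, rose in both genotypes, by 1.66 in AhR KO skin (adjusted p = 0.000137) and by 1.4 in AhR HET skin (adjusted p = 0.00131), the second by 0.81 with its probe sets averaged. Fasn (-1.17), Scd1 (-1.05) and Acaca (-0.59), enzymes that make and desaturate fatty acids, fell in AhR KO skin. Sebocytes and keratinocytes use these enzymes as well.

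The synthesis count in AhR KO skin ran between 8 and 13 called genes when single arrays were left out. It stayed at 1 higher and 11 lower with the Gapdh covariate, and was 1 higher and 6 lower both with AhR KO IMQ replicate 3 alone and with a gene's probe sets averaged. On day 2, 3 synthesis genes were lower in AhR KO than in AhR HET skin, among them Elovl6 (-1.54, adjusted p = 0.00337), which extends palmitate, and Thrsp (-2.21, adjusted p = 0.0352). That count was 0 both with the Gapdh covariate and with AhR KO IMQ replicate 3 alone, where Elovl6 differed by -1.66 (adjusted p = 0.123) and -1.67 (adjusted p = 0.122) and Thrsp by -2.00 (adjusted p = 0.538) and -1.59 (adjusted p = 0.575). Averaging its probe sets left Thrsp at -1.27 (adjusted p = 0.0527). The count was 1 without AhR HET IMQ replicate 2 or 3 or AhR KO IMQ replicate 2. It was 5 without AhR HET untreated replicate 2. The Thrsp call was lost without AhR HET IMQ replicate 1, 2 or 3 or AhR KO IMQ replicate 1 or 2 (differences -2.35 to -1.80, adjusted p 0.0586 to 0.156), and that of Elovl6 was not lost without any single array.

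**Figure D5:**
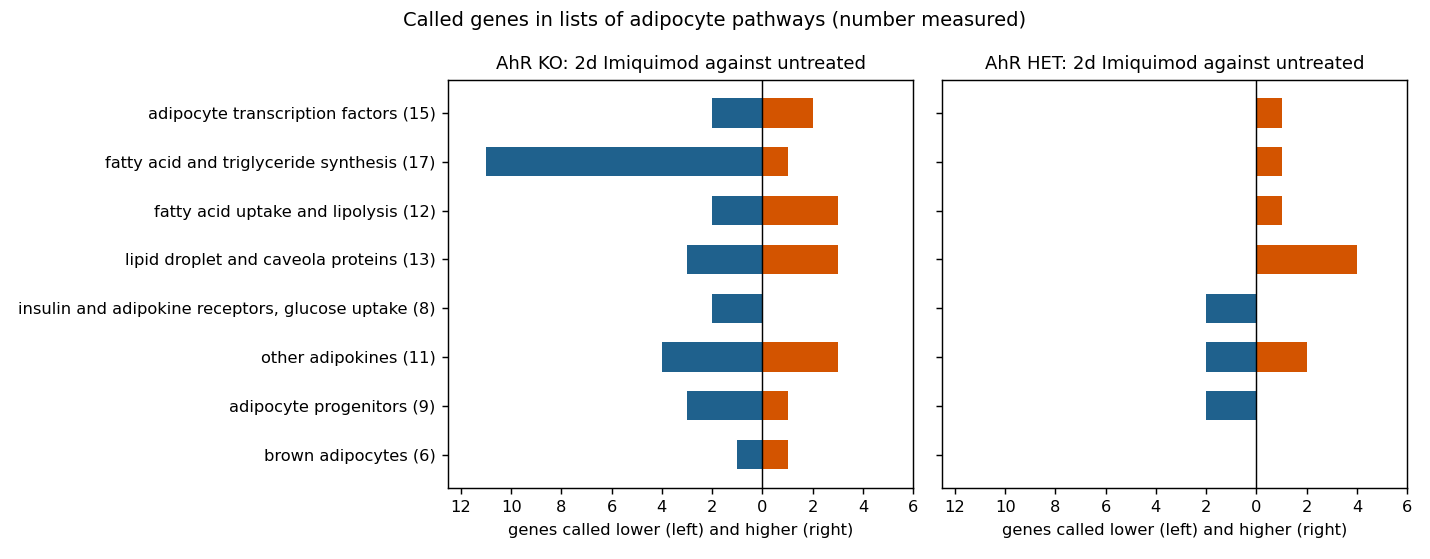
Number of genes called lower (blue, left of 0) and higher (orange, right of 0) with IMQ in 8 lists of adipocyte biology, with the number of genes measured in brackets, for AhR KO skin (left) and AhR HET skin (right). Fatty acid and triglyceride synthesis in AhR KO skin has 11 genes lower and 1 higher of 17, beside 12.1% and 10.6% of all genes.

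Droplet and caveola proteins moved in both directions. In AhR KO skin 3 of 13 genes rose and 3 fell, and in AhR HET skin 4 rose and 0 fell (1 lower at an unadjusted p under 0.05). Hilpda, an inhibitor of ATGL that hypoxia induces, gave 9.79, 9.27 and 9.12 in AhR KO skin and 9.64, 9.08 and 9.34 in AhR HET skin after IMQ, against 7.21, 7.02 and 7.56 in untreated AhR KO and 7.41, 7.35 and 6.37 in untreated AhR HET skin. It rose by 2.13 (adjusted p = 0.000199) and by 2.31 (adjusted p = 0.000376) in AhR KO and AhR HET skin. Plin2, the perilipin of many cell types, rose by 1.24 and 1.43 and Plin5, the perilipin of oxidative tissues, by 1.07 and 1.51 in AhR KO and AhR HET skin, while Plin4 among the members was called in neither. Cav2, a caveolin, gave 10.89, 10.34 and 11.44 in AhR KO skin after IMQ, against 11.94, 11.77 and 12.06 in untreated AhR KO skin. It fell by 1.03 (adjusted p = 0.00917), and was lowest on AhR KO IMQ replicates 1 and 2. The call was lost with the Gapdh covariate (-0.55, adjusted p = 0.208), with AhR KO IMQ replicate 3 alone (-0.48, adjusted p = 0.324) and with its probe sets averaged (-0.40, adjusted p = 0.0746). The list's falls in AhR KO skin numbered 1 in the first and second of these settings, and Plin2 was not called with AhR KO IMQ replicate 3 alone (0.83, adjusted p = 0.0984).

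Ces1d, an adipocyte and liver carboxylesterase that hydrolyses triglyceride, gave 7.95, 7.45 and 7.67 in AhR KO skin after IMQ, against 10.90, 10.38 and 11.03 in untreated AhR KO skin. It fell by 3.08 there (adjusted p = 3.03e-05) and its difference was -0.45 in AhR HET skin (adjusted p = 0.422). The responses differed by -2.63 (adjusted p = 0.0173). On day 2 Ces1d gave 7.95, 7.45 and 7.67 in AhR KO skin, against 9.21, 9.45 and 9.66 in AhR HET skin, lower by -1.75 (adjusted p = 0.00909). That call was lost without AhR HET IMQ replicate 3 (-1.63, adjusted p = 0.0561), without AhR KO IMQ replicate 2 (-1.63, adjusted p = 0.0599), with the Gapdh covariate (-1.81, adjusted p = 0.213) and with AhR KO IMQ replicate 3 alone (-1.77, adjusted p = 0.236).

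Among 12 genes of fatty acid uptake and lipolysis, 3 rose and 2 fell in AhR KO skin and 1, Mgll, which encodes monoglyceride lipase, rose in AhR HET skin. Lpl, which frees fatty acids from lipoproteins, fell by 0.79 in AhR KO skin (adjusted p = 0.00246). Pde3b, through which insulin restrains lipolysis, fell by 0.76 there (adjusted p = 0.042), a call that 7 single arrays could end: AhR KO untreated 1 or 2, AhR HET IMQ 2 or 3 and AhR KO IMQ 1, 2 or 3 (adjusted p 0.0516 to 0.149). Hcar2, the nicotinic acid receptor that restrains lipolysis and is also found on neutrophils and macrophages, rose by 1.14 in AhR KO skin (adjusted p = 0.00885). On day 2 it was 1.2 higher in AhR KO than in AhR HET skin (adjusted p = 0.0315), not called without AhR KO untreated 1, AhR HET IMQ 1, 2 or 3 or AhR KO IMQ 2 (adjusted p 0.0502 to 0.137). G0s2, a second inhibitor of ATGL, gave 9.50, 9.95 and 9.50 in AhR KO skin and 8.33, 8.11 and 7.26 in AhR HET skin on day 2, higher by 1.75 (adjusted p = 0.0295). Untreated, it gave 8.32, 8.08 and 8.55 in AhR KO skin and 8.25, 9.04 and 10.14 in AhR HET skin. Its responses differed by 2.57 (adjusted p = 0.0464), a call not followed through other settings. Its rise of 1.33 in AhR KO skin (adjusted p = 0.0245) was lost without AhR KO untreated 1 or 2 or AhR KO IMQ 1 or 2 (adjusted p 0.0523 to 0.0943). Its day 2 call was lost without AhR HET IMQ 2 or 3 or AhR KO IMQ 1 or 2 (differences 1.43 to 1.85, adjusted p 0.0686 to 0.146). All 5 calls of this list in AhR KO skin, and both on day 2, were lost with the Gapdh covariate and with AhR KO IMQ replicate 3 alone, though the differences kept their signs. In AhR KO skin they were then 1.06 and 1.18 for G0s2, 0.75 and 0.85 for Hcar2, -0.64 and -0.54 for Lpl and -0.69 and -0.61 for Pde3b. On day 2 they were 1.41 and 1.6 for G0s2 and 0.72 and 0.91 for Hcar2. The call of Mgll (1.16, adjusted p = 0.034) was lost without AhR HET untreated 2 or 3 or AhR HET IMQ 1, 2 or 3 (differences 0.85 to 1.29, adjusted p 0.0608 to 0.111).

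Of 8 genes for receptors and glucose uptake, 2 fell in each genotype, and they were Irs1, the docking protein of the insulin receptor, and Lepr, the leptin receptor. Irs1 gave 8.93, 8.91 and 9.48 in AhR KO skin and 9.85, 10.56 and 10.65 in AhR HET skin after IMQ, against 11.49, 11.35 and 11.21 in untreated AhR KO and 11.59, 10.85 and 11.31 in untreated AhR HET skin. It fell by 2.24 in AhR KO skin (adjusted p = 5.62e-05) and by 0.89 in AhR HET skin (adjusted p = 0.0383), and the fall in AhR HET skin was not called without AhR HET untreated 1 or 3, AhR KO untreated 1 or 2, AhR HET IMQ 1 or 2 or AhR KO IMQ 1 (adjusted p 0.0509 to 0.16). On day 2 Irs1 was lower in AhR KO than in AhR HET skin by -1.24 (adjusted p = 0.016), a call lost without AhR HET IMQ 2 or 3 or AhR KO IMQ 1 or 2 (adjusted p 0.0608 to 0.0967), with the Gapdh covariate (-0.92, adjusted p = 0.5) and with AhR KO IMQ replicate 3 alone (-0.87, adjusted p = 0.487). Lepr fell by 1.22 in AhR KO skin (adjusted p = 0.00271) and by 1.13 in AhR HET skin (adjusted p = 0.0105). With its probe sets averaged, it fell by 0.72 in AhR KO skin (adjusted p = 0.0305) and was not called in AhR HET skin (-0.39, adjusted p = 0.306). With AhR KO IMQ replicate 3 alone it was not called in AhR KO skin (-1.15, adjusted p = 0.092). The adiponectin receptor genes Adipor1 (-0.31 in AhR KO and -0.42 in AhR HET skin) and Adipor2 (0.28 in AhR KO and 0.07 in AhR HET skin) were not called.

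Other adipokines moved in both directions. Lcn2, a siderophore-binding protein that keratinocytes and neutrophils also make, rose by 7.62 in AhR KO skin (adjusted p = 5.42e-07) and by 6.26 in AhR HET skin (adjusted p = 4.13e-06). Rarres2, which encodes chemerin, rose by 1.35 and 1.61 in AhR KO and AhR HET skin, and the AhR KO call was lost with the Gapdh covariate (1.41, adjusted p = 0.0652) and with AhR KO IMQ replicate 3 alone (1.43, adjusted p = 0.121). Rbp4, the retinol carrier, gave 7.46, 7.51 and 7.89 in AhR KO and 7.88, 8.47 and 8.09 in AhR HET skin after IMQ, against 10.77, 10.27 and 10.48 in untreated AhR KO and 9.65, 9.37 and 9.64 in untreated AhR HET skin. It fell by 2.89 in AhR KO skin (adjusted p = 1.3e-06) and by 1.41 in AhR HET skin (adjusted p = 0.000734), and the responses differed by -1.48 (adjusted p = 0.0247). Retnla, a resistin-like gene of macrophages and adipose tissue, fell by 3.03 in AhR KO skin (adjusted p = 6.33e-05) and by 2.30 in AhR HET skin (adjusted p = 0.00131). Nrg4, a growth factor of brown fat, was lower in AhR KO than in AhR HET skin on day 2 by -1.03 (adjusted p = 0.0261), not called without AhR HET IMQ 2 or 3 or AhR KO IMQ 1 or 2 (adjusted p 0.0907 to 0.138), with the Gapdh covariate (-0.92, adjusted p = 0.468) or with AhR KO IMQ replicate 3 alone (-0.82, adjusted p = 0.49). In all, 3 of 11 rose and 4 fell in AhR KO skin, and 2 rose and 2 fell in AhR HET skin.

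Among 15 transcription factors of adipocytes, 2 rose and 2 fell in AhR KO skin and 1 rose in AhR HET skin. Pparg, the master factor of adipocytes, differed by -0.40 in AhR KO skin (adjusted p = 0.121) and by 0.38 in AhR HET skin (adjusted p = 0.217), and Cebpa by -0.44 in AhR KO and 0.02 in AhR HET skin, none called. Cebpd rose by 1.72 in AhR KO skin (adjusted p = 0.00209) and by 1.33 in AhR HET skin (adjusted p = 0.0219), and the AhR HET call was lost without AhR HET IMQ replicate 1 (1.03, adjusted p = 0.0983). With AhR KO IMQ replicate 3 alone Cebpd differed by 1.43 in AhR KO skin (adjusted p = 0.103), not called. Cebpb rose by 1.32 in AhR KO skin (adjusted p = 9.4e-05). Both also act in inflamed epidermis and myeloid cells. Ebf1, a factor of adipocytes and their precursors, fell by 1.48 in AhR KO skin (adjusted p = 0.0076), a call lost with the Gapdh covariate (-0.95, adjusted p = 0.166) and with AhR KO IMQ replicate 3 alone (-0.90, adjusted p = 0.304). Ebf2, its relative in progenitors and brown fat, fell by 0.94 in AhR KO skin (adjusted p = 0.0458), not called without AhR HET untreated 3, AhR KO untreated 1, 2 or 3, AhR HET IMQ 2 or AhR KO IMQ 1, 2 or 3 (adjusted p 0.057 to 0.129).

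Of 9 genes of adipocyte progenitors, 1 rose and 3 fell in AhR KO skin, and 2 fell in AhR HET skin. Cd34, a surface protein of progenitors, endothelium and hair follicle stem cells, fell by 1.67 in AhR KO skin (adjusted p = 0.000802) and by 1.19 in AhR HET skin (adjusted p = 0.0159), the AhR HET call lost without AhR HET untreated replicate 3 (-1.17, adjusted p = 0.0507) or AhR HET IMQ replicate 1 (-1.01, adjusted p = 0.0761). Dpp4, a peptidase of early progenitors, fell by 1.32 in AhR KO skin (adjusted p = 0.00221), not called with AhR KO IMQ replicate 3 alone (-1.19, adjusted p = 0.0955). Pdgfra, a growth factor receptor of progenitors and fibroblasts, rose by 0.69 in AhR KO skin (adjusted p = 0.0375), not called without AhR KO untreated 1 or 3, AhR HET IMQ 3 or AhR KO IMQ 1, 2 or 3 (adjusted p 0.0509 to 0.119), with array weights (0.45), with the Gapdh covariate (0.88, adjusted p = 0.0811) or with AhR KO IMQ replicate 3 alone (0.93, adjusted p = 0.13). Pi16, a marker of early progenitors and some fibroblasts, fell by 1.54 in AhR HET skin (adjusted p = 0.0265), not called without AhR HET untreated 1 or 3 or AhR HET IMQ 1 or 2 (adjusted p 0.0743 to 0.111). Of 6 brown adipocyte genes, 1 rose and 1 fell in AhR KO skin. Dio2, which activates thyroid hormone, rose by 1.44 (adjusted p = 0.0177), not called without AhR KO untreated 1 or 2 or AhR KO IMQ 2 (adjusted p 0.0655 to 0.0734) or with its probe sets averaged (0.74, adjusted p = 0.0546). Ppargc1a, a coactivator of mitochondrial genes also used in muscle, gave 5.08, 4.73 and 6.49 after IMQ in AhR KO skin, against 7.14, 7.09 and 7.02 untreated. It fell by 1.64 (adjusted p = 0.00692), or by 0.98 with its probe sets averaged, and AhR KO IMQ replicates 1 and 2 lay furthest below the untreated arrays. Neither gene was called in AhR KO skin with the Gapdh covariate (1.25, adjusted p = 0.166, for Dio2 and -0.87, adjusted p = 0.173, for Ppargc1a) or with AhR KO IMQ replicate 3 alone (1.35, adjusted p = 0.231, and -0.59, adjusted p = 0.362). Neither was called in AhR HET skin (1.00 and -0.73). Ucp1, which uncouples respiration in brown fat, was not called (0.35 in AhR KO and -0.01 in AhR HET skin). On day 2 no gene of the transcription factor, progenitor or brown lists was called between AhR KO and AhR HET skin by limma or the rank product, where 3 transcription factor genes were higher and 1 lower, 4 progenitor genes higher and 1 lower, and 1 brown gene lower at an unadjusted p under 0.05. The day 2 differences of the genes with the largest ones were 0.81 for Stat5a and 0.55 for Cebpd, 1.15 for Pi16 and 0.80 for Pdgfrb, and -0.94 for Ppargc1a and 0.32 for Prdm16. Without AhR HET untreated replicate 2, Stat5a (adjusted p = 0.0117) and Pi16 (adjusted p = 0.0228) were called, without AhR HET untreated replicate 1 Stat5a (adjusted p = 0.0322), and without AhR KO IMQ replicate 3 Stat5a (adjusted p = 0.0412) and Ppargc1a (adjusted p = 0.0118).

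The rank product called fewer list genes than limma with IMQ, as it did over all genes. Of all genes it called 380 in AhR KO skin (limma 4130) and 223 in AhR HET skin (limma 1646). Between the genotypes on day 2 these counts were 212 (limma 724). The threshold of the rank product was also stricter than that of limma, so its lower list counts are not a result about the lists. On day 2 it called 3 synthesis genes and 1 droplet gene, the same counts as limma. It called 1 uptake and lipolysis gene there (limma 2), and 0 receptor genes and 0 other adipokines (limma 1 each). With IMQ in AhR KO skin it called 3 of the other adipokines, 1 gene each of the synthesis, droplet and receptor lists, and 0 of the rest. In AhR HET skin it called 2 of the other adipokines, 1 droplet gene and 0 of the rest. In a fit to the AhR HET arrays alone, the calls of Cebpd, Mgll, Lepr, Irs1, Rarres2, Cd34 and Pi16 in AhR HET skin were lost at unchanged differences (adjusted p 0.0652 to 0.11).

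The genes whose signal over the 12 arrays was most like the mean of the 8 standardized members were AU020206 (Pearson r = 0.942), 4930481A15Rik (0.93), Jade2 (0.891), Tsc22d4 (0.889) and Tnni3 (0.878), followed by 10 genes down to Sorbs3 at 0.849: Inppl1, Nr2f2, Irf2, Snhg11, Scly, Wdr81, Rhob, Klhdc3, Dlc1 and Sorbs3. These are the highest of 18193 values over 12 arrays that share their groups, so r describes likeness here and no more. AU020206 gave 8.09, 8.04 and 7.78 in AhR KO skin and 7.78, 7.63 and 7.54 in AhR HET skin after IMQ, against 8.47, 8.12 and 7.58 in untreated AhR KO and 7.92, 7.31 and 7.99 in untreated AhR HET skin. Like the members, it was lowest in its group on AhR KO untreated replicate 3 and on AhR HET untreated replicate 2.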

How the data were processed

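The deposited log2 signals of the 12 arrays were made by the authors with RMA in the R package affy, which corrects background, normalizes arrays together by quantiles and summarizes each probe set; versions are not given in the sources used here. Of 45101 probe sets, 34945 were annotated to 1 gene alone, and each of 18193 genes was read from its brightest set on average. Dim genes were kept. Using limma 3.58.1 (lmFit, then eBayes) under R 4.3.3, a model of 4 group means was fitted to all genes, and p-values were adjusted by Benjamini-Hochberg over all genes within each of 5 comparisons. The number of arrays limits the precision.

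The 8 measured of the 10 members were followed in every comparison. From each list, the rule named up to 2 called rises and 2 called falls with the largest differences in each IMQ comparison and on day 2, or the largest 2 where none was called. The genes Me1, Fasn, Scd1, Acaca, Adipor1, Adipor2, Pparg, Cebpa, Ucp1, Pvalb and Myh4 were added after their values were seen, and 15 genes were named for likeness to the members. Members, lists and tests were chosen with earlier results of these data known. The rank product (pfp under 0.01, 100 permutations) was written anew in Python 3.11.15. It and other settings were alternatives, as was leaving out each array; those of the lists were chosen after seeing the data. The steps were tested on simulated data.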

Additional observations from a re-analysis of the deposited data

How the results depend on the processing

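With limma, 2 members were called with IMQ in AhR KO skin and 1 in AhR HET skin. The AhR KO count was 1 at an adjusted p under 0.01, 1 with each array centred on its median (Retn lost, adjusted p = 0.0631), 1 with the Gapdh covariate, and 0 with AhR KO IMQ replicate 3 alone or by the rank product. It ran from 1 to 3 when single arrays were left out, and was 3 without AhR KO IMQ replicate 3, where Lipe was added. Over all genes limma called 4130 in AhR KO skin, 2725 at an adjusted p under 0.01 and 4364 without AhR KO IMQ replicate 3. The AhR HET count was 0 at an adjusted p under 0.01, in a fit to the groups compared alone, with AhR KO IMQ replicate 3 alone and by the rank product, and 3 with array weights (Adipoq, Lep and Retn). It ran from 0 to 2 when single arrays were left out, and was 2 without AhR HET untreated replicate 2. Over all genes limma called 1646 in AhR HET skin and 2563 with array weights. It called 717 at an adjusted p under 0.01, 959 with the groups compared alone and 2436 without AhR HET untreated replicate 2. Between AhR KO and AhR HET skin on day 2, array weights called 3 members (Lipe, Plin4 and Pnpla2), and the groups compared alone gave 1 (Plin4, adjusted p = 0.0349). Leaving out single arrays gave 0 to 1. Over all genes limma called 724 on day 2, 2019 with array weights and 1091 with the groups compared alone. The untreated comparison and the difference of the responses stayed at 0 throughout. The cause of these changes was not tested. Lists were put through the same alternatives after seeing the data, except for the difference of the responses. The called response differences of Me1, Ces1d, G0s2 and Rbp4 were thus not followed through other settings. Over all genes, limma called 241 genes for that difference, 12 with the Gapdh covariate, and 31 to 942 when single arrays were left out.

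Signs turned only for differences that were not called. Fabp4 in AhR HET skin became -0.0017 with the mean of all probe sets, -0.05 with quantile normalization again, -0.12 with array weights and -0.04 with the Gapdh covariate, and ran from -0.18 to 0.19 when single arrays were left out. In AhR KO skin it became -0.30 with the mean of all probe sets and -0.04 with array weights, and ran from -0.04 to 0.10. Cidec in AhR KO skin became -0.16 with array weights, -0.03 with the Gapdh covariate and -0.01 with AhR KO IMQ replicate 3 alone, and ran from -0.23 to 0.37. With the Gapdh covariate and with AhR KO IMQ replicate 3 alone, Lipe became -0.72 and -0.92 in AhR KO skin, -0.17 and -0.11 between genotypes on day 2, and -0.68 and -0.55 for the difference of the responses, and it ran from -0.11 to 0.95 in AhR KO skin. Pnpla2 in AhR HET skin ran from -0.10 to 0.32, and Plin4 in untreated skin from -0.41 to 0.27, with 0.14 under array weights. For the difference of the responses, Retn became 0.13 with array weights and 0.04 with AhR KO IMQ replicate 3 alone, and Fabp4 became -0.30 with the mean of all probe sets and ran from -0.13 to 0.24. On day 2 Ppargc1a became 0.02 and 0.11 and Prdm16 -0.10 with the Gapdh covariate, the second Ppargc1a value being with AhR KO IMQ replicate 3 alone.

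The labels do not say whether the replicate numbers pair the arrays. Deviations of same-numbered arrays correlated between -0.184 and 0.316. Differently numbered arrays were not correlated for comparison, so these values cannot decide whether arrays were paired. With a replicate block, the counts of called members were 2, 1, 0, 0 and 0 for IMQ in AhR KO and AhR HET skin, day 2, untreated skin and the difference. Among the genes named from the lists, the block ended the call of Ebf2 in AhR KO skin (adjusted p = 0.0675) and of Hcar2 on day 2 (adjusted p = 0.0512). Precision is limited by 3 arrays a group, and near the top of the signal range, as for Fabp4, by compression.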
